A study of Mus musculus with 14 samples.

Results

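The Serpina1, Serpina3, Serpina6 and Serpina12 genes of liver were examined in male and female mice before and after puberty. The set holds 10 clade A serpin genes (Serpina1a, Serpina1b, Serpina1c, Serpina1d, Serpina1e, Serpina3k, Serpina3m, Serpina3n, Serpina6 and Serpina12). They were chosen by name, with earlier results of these data known, and their probes were found through the RefSeq accession on the array. A probe was found for 9 of the 10 genes, among 19751 genes with a named probe, and Serpina1b had none. The 9 genes were measured by 13 probes, 7 of them for the 4 measured Serpina1 genes. Liver RNA was taken from untreated CD-1 mice in 6 groups, which were male and female mice aged 3 wk (M3 and F3), 4 wk (M4 and F4) and 8 wk (M8 and F8). Each group had 2 RNA pools, of 5 mice each at 3 wk and 6 mice each at 4 and 8 wk, so that the values describe pools and not single animals. The pools were compared on 14 Agilent arrays in 7 comparisons of 2 arrays each, with the dyes exchanged between the arrays, and a pool was used again in each comparison of its group. In whole liver, a change in the amount of RNA per cell and a change in the share of a cell type cannot be told apart.

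Serpins are secreted proteins that hepatocytes release in large amounts. Most of them are suicide inhibitors, in which a protease cuts an exposed loop and is trapped in the complex that forms, and a few have lost this function and carry small hormones in plasma instead. The mouse has several copies of the alpha-1-antitrypsin gene (Serpina1), whose human counterpart is the main inhibitor of neutrophil elastase, and a larger group of copies of the antichymotrypsin gene (Serpina3). Serpina6 encodes corticosteroid-binding globulin, the plasma carrier of glucocorticoids, and Serpina12 encodes vaspin, a secreted inhibitor of kallikrein 7.

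The promoters of the Serpina1 genes are shown because these copies moved together on the arrays, and that of Serpina12, from the same chromosomal cluster, because its ratios took another course. Sequences are from RefSeq (assembly GRCm38.p6), cover 250 bases before and 50 bases after the annotated start, run 5′ to 3′ on the strand of the gene (minus for each gene printed), and were held for 7 of the 10 genes. Capitals mark the longest run of bases that all 5 Serpina1 promoters share.
Serpina1a (chr12:103863570-103863869): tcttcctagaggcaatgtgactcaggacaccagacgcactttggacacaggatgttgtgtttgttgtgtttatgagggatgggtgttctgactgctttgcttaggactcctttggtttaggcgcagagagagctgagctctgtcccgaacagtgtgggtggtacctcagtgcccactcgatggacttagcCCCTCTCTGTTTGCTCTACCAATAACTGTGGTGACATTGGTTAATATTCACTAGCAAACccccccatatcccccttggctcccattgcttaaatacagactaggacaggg
Serpina1d (chr12:103773584-103773883): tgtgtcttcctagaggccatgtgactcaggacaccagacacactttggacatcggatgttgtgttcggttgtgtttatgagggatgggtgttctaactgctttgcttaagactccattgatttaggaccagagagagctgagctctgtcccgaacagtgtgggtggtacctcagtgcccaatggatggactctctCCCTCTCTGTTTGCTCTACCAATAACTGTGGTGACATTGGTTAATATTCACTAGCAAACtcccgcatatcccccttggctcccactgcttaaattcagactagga
Serpina1e (chr12:103956848-103957147): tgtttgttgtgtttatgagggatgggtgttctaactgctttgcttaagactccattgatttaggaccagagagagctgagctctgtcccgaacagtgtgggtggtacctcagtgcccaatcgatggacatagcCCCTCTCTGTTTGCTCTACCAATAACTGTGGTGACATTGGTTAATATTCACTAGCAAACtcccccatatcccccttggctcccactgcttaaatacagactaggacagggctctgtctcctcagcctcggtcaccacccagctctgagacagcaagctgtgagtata
Serpina12 (chr12:104044394-104044693): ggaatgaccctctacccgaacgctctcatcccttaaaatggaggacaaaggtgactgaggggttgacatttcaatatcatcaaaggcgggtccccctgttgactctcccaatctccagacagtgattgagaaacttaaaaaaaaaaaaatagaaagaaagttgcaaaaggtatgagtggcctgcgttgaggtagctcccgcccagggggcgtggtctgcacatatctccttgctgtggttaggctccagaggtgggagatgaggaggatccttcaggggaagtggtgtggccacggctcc
The shared run was 59 bases long and stood in the promoters of 5 of 5 Serpina1 genes, Serpina1b included. It began at position -60 in Serpina1a, -65 in Serpina1b, -66 in Serpina1c and -55 in Serpina1d, counted back from the annotated start, and at -117 in Serpina1e, whose annotated start lies further along the shared sequence. Local alignments of the 10 pairs were 91.4% to 97.6% identical over 240 to 300 columns. The run was not in the Serpina12 or Serpina3n windows. The STAT motif TTCNNNGAA, held by 8.3% of the 32851 promoters of the same length, and the nuclear receptor core AGGTCA, held by 16.3%, were in none of the 7 windows on either strand. This describes the letters of these windows and not the binding of a factor.

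Ratios are given on the log2 scale, where 1 is a 2-fold difference, with males set against females in a sex comparison and the 8 wk group set against the younger one in an age comparison. The study's methods give the dyes of the first M3/F3 array the other way round from the sample labels. The dyes of the labels were used, and with them the Y-linked gene Ddx3y was higher in males on all 6 sex arrays (log2 ratios of 5.80 to 7.24). A gene was called when the adjusted p of limma (Benjamini-Hochberg) was below 0.05, its fold difference exceeded 1.5 in either direction, and on both arrays 1 or both of its groups were well above background, a flag that the scanner software sets for a spot clearly brighter than its surroundings. On 1 channel of an array, 55.2% to 77.2% of spots were well above background, and no spot was saturated. Each of the 13 serpin probes was well above background in 28 of 28 channels. The number of arrays limits the precision, and the SD between the arrays of a comparison over 21650 bright probes ranged from 0.20 (M4/F4 and F8/F4) to 0.25 (M8/F8). The 3 sex comparisons and M8/M3 were scanned on one day and the other age comparisons on another.

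The Serpina1 genes were higher in adult male liver than in the liver of younger males, and adult females did not show this rise beyond the spread between arrays. In M8/M3 all 4 measured Serpina1 genes were called, at 1.78- to 1.88-fold (SE 0.12 to 0.17, limma adjusted p of 0.0047 to 0.015). Their log2 ratios were 0.83 for Serpina1a, 0.91 for Serpina1c, 0.89 for Serpina1d and 0.89 for Serpina1e. With Serpina12, 5 of the 9 measured serpins were called in M8/M3, all higher, where 17.9% of all genes tested were called and 7.83% were called higher. The median of the 9 genes was 0.83, which is the Serpina1a ratio, against 0.013 for all genes tested. The 4 Serpina1 genes are not taken as separate, as described below, so the count of 5 and the median do not rest on 9 separate signals. The remaining genes gave 3.13 (Serpina12), 0.29 (Serpina3n), -0.13 (Serpina3k), -0.28 (Serpina3m) and -0.58 (Serpina6). Serpina1d gave 0.67 and 1.11 on the M8/M3 arrays, and Serpina1a gave 0.75 and 0.91. Each of the 7 Serpina1 probes was positive on both arrays and called, between 0.77 and 0.91. In M8/M4, 3 genes were called, all higher and all of them Serpina1 genes, where 10.9% of all genes were called and 4.46% were called higher. Their log2 ratios were 0.65 for Serpina1c (adjusted p = 0.049), 0.68 for Serpina1d (adjusted p = 0.013) and 0.64 for Serpina1e (adjusted p = 0.017), all with limma. Serpina1a had a ratio of 0.58, which lay just under the fold threshold (adjusted p = 0.056). Serpina1e was not called with shared pools in the covariance (adjusted p = 0.058), nor Serpina1c with slide as a block (adjusted p = 0.075). None of these calls held with either M8/M4 array left out or without the dye term, and without that term Serpina1a, Serpina1c and Serpina1d were lost in M8/M3 (adjusted p = 0.15, 0.16 and 0.12). The M8/M3 calls did not hold without the first array (0.59 to 0.83 for the Serpina1 genes).

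In females the arrays of a comparison differed by more than the fitted age ratios. For Serpina1a the F8/F3 arrays gave -0.42 and 0.57, and the F8/F4 arrays gave -0.51 and 0.12. The F8/F3 arrays thus lay on opposite sides of 0, as they did for each of the 7 Serpina1 probes. In 7 of 7 comparisons Serpina1a was higher on the array that carried the first-named group in red, and pool and dye changed together between the arrays of a comparison, so that the 2 cannot be told apart there. The fitted F8/F3 ratios were between 0.0057 and 0.13, and those of F8/F4 between -0.32 and -0.20. By limma 0 of the 9 serpins were called in F8/F3 (11.7% of all genes), and 3 had an unadjusted p below 0.05. Neither the 3 wk nor the 4 wk pools of a sex were put on 1 array, and through the shared 8 wk pools 0 of 9 serpins were called in M4/M3 (0.292% of all genes) or F4/F3 (0.093%), with 0 at an unadjusted limma p below 0.05 in either.

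**Figure D1:**
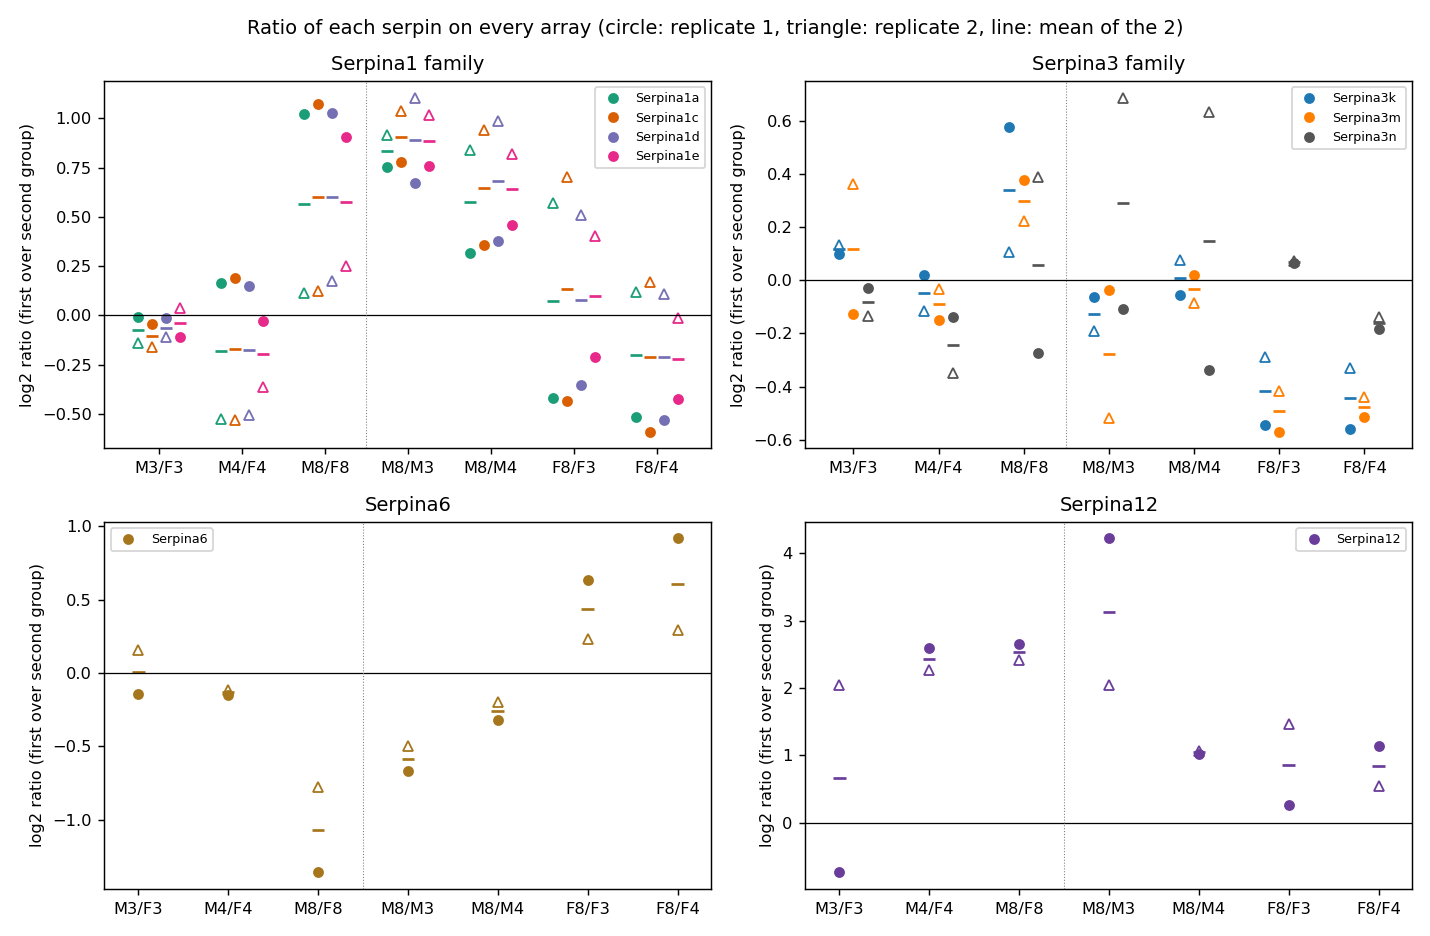
Log2 ratio of each measured serpin (main probe) on each of the 14 arrays, by comparison, with sex comparisons left of the dotted line and age comparisons right of it. Circles and triangles are the 2 replicate arrays and lines their mean; the Serpina1 genes lie above 0 on both M8/M3 and both M8/M4 arrays, and Serpina6 lies below 0 on both M8/F8 arrays.

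Between adult males and females the Serpina1 genes were higher in males by about 1.5-fold, with a wide spread. The M8/F8 arrays gave 1.03 and 0.17 for Serpina1d, 1.02 and 0.11 for Serpina1a, 1.07 and 0.12 for Serpina1c and 0.90 and 0.25 for Serpina1e. All 8 values were positive, and the first array was higher for each gene. They come from the same 2 arrays and from copies that are not taken as separate, so they are not 8 separate observations. Serpina1d was called (log2 ratio 0.60, SE 0.12, limma adjusted p = 0.021), but not without the dye term (adjusted p = 0.31), with slide as a block (adjusted p = 0.054) or with normexp and loess (log2 ratio 0.58, under the fold threshold). Serpina1e passed the limma test (adjusted p = 0.025) but its ratio of 1.49 missed the threshold of 1.5. Serpina1a had a log2 ratio of 0.57 (limma adjusted p = 0.060) and Serpina1c one of 0.60 (adjusted p = 0.064). In all, 2 of 9 serpins were called in M8/F8, Serpina1d higher and Serpina6 lower in males, where 6.4% of all genes were called, 2.65% higher and 3.74% lower. Neither was called without the first M8/F8 array (0.45 for Serpina1d and -0.86 for Serpina6), and 3 serpins were called without the second. In younger mice the fitted ratios lay below 0, although the first M4/F4 array gave 0.17 for Serpina1a, 0.19 for Serpina1c and 0.15 for Serpina1d and the second gave -0.53, -0.53 and -0.51. The 7 Serpina1 probes had ratios of -0.16 to -0.036 in M3/F3 and -0.35 to -0.17 in M4/F4, and limma called 0 of 9 serpins in M3/F3 (0.517% of all genes) and in M4/F4 (1.58%), with 0 and 1 at an unadjusted p below 0.05.

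Signals of single pools are given with their dyes, with a pool taken as the channels of its group that carry the same replicate number. In F8, M3 and M4 one pool was labelled red on every array and the other green, so that for any gene a gap between the pools of these groups cannot be told apart from a dye effect, while the pools of F3, F4 and M8 carried both dyes. Adult male pools had the highest Serpina1a signals, of 186109 and 168455 in arbitrary units after normalization between arrays. Adult female pools had 105940 (always green) and 157340 (always red). The remaining pools were at 157073 and 129883 (F3), 146908 and 148925 (F4), 139619 and 107372 (M3) and 142355 and 105252 (M4). The pool labelled red was the higher one in F8, M3 and M4. In order of the mean log2 signal, M8 was followed by F4, F3, F8, M3 and M4. Below M8 the pools of neighbours overlapped, over ranges that include the dye. The M8 pools of Serpina1c, Serpina1d and Serpina1e were likewise above every other pool, but these copies are not taken as separate. The share of all genes with pools separated in this way was not counted, here or for the other serpins.

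**Figure D2:**
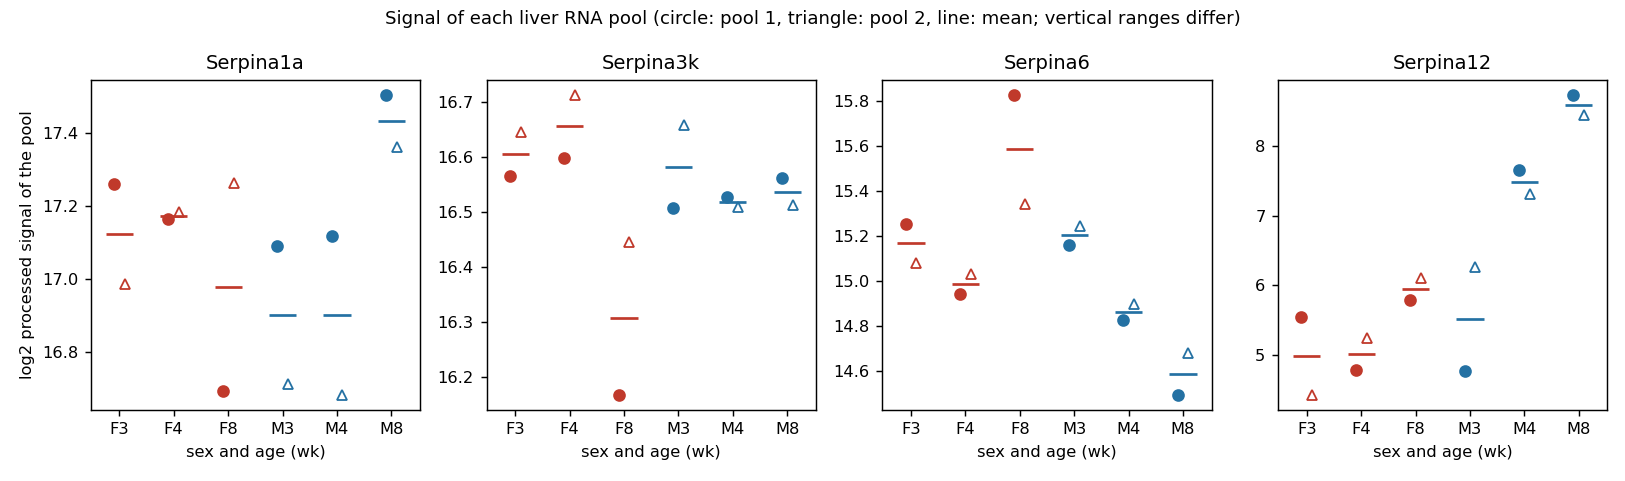
Log2 processed signal of the 2 RNA pools of each group (circle and triangle, line for their mean, red for female and blue for male) for Serpina1a, Serpina3k, Serpina6 and Serpina12, with a vertical range of its own in each panel; in F8, M3 and M4 the circle and the triangle also differ in dye. The M8 pools are the highest for Serpina1a and Serpina12 and the lowest for Serpina6.

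Whether the Serpina1 probes tell the copies apart is not known from these arrays. Over the 14 arrays the 21 pairs of the 7 probes correlated with r = 0.93 to 1.00, and no pair differed by more than 0.46 on any array. A correlation of this size does not separate the copies from other genes on these arrays, since Phf12 reached 0.978 with Serpina1d. The strongest correlation, between the main probes of Serpina1a and Serpina1c, was 0.998. These probes share arrays, dyes and pools. The arrays' own files hold no probe sequences, and no sequences of Serpina1 probes were compared, so cross-hybridisation among the copies, Serpina1b included, was not tested. The values of single copies are therefore not taken as separate. The probes of Serpina3k and Serpina3m also moved together (r = 0.87), whereas that of Serpina3n did not follow Serpina3k (r = -0.040) or Serpina3m (r = -0.24).

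Of the 3 Serpina3 genes of the set 1, Serpina3k, was lower in adult than in younger females by the limma test, by less than the fold threshold. Serpina3k, contrapsin, an inhibitor of trypsin-like proteases in mouse plasma, gave -0.55 and -0.29 on the F8/F3 arrays and -0.56 and -0.33 on the F8/F4 arrays. All 4 values were negative. Its fitted ratios of -0.42 (0.749-fold, limma adjusted p = 0.028) and -0.44 (0.735-fold, adjusted p = 0.022) passed the test but not the fold threshold. Serpina3m, a neighbouring copy, gave -0.57 and -0.42 on the F8/F3 arrays, then -0.52 and -0.44 on those of F8/F4, and its limma adjusted p was 0.050 and 0.056. Outside the set, Serpina3c had fitted ratios of -0.42 and -0.41 (limma adjusted p = 0.0094 and 0.010), also under the fold threshold. Serpina3a was called lower in both (-2.51 and -1.32), while Serpina3b, Serpina3f and Serpina3j did not pass in either. Cross-hybridisation among the Serpina3 copies was not tested. In males the fitted ratios of Serpina3k and Serpina3m were -0.13 and -0.28 in M8/M3 and 0.010 and -0.035 in M8/M4, and none passed the test. In M8/F8 Serpina3k gave 0.57 and 0.10 (fitted 0.34, adjusted p = 0.058) and Serpina3m 0.38 and 0.22 (fitted 0.30, adjusted p = 0.20). The 2 adult female pools had the lowest Serpina3k signals, of 73598 and 89240, against 93161 to 107458 in the 10 other pools.

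Serpina3n, an acute phase serpin that inhibits granzyme B and cathepsin G, was the least settled of the 3. It gave -0.27 and 0.39 on the M8/F8 arrays, -0.11 and 0.69 on those of M8/M3 and -0.34 and 0.63 on those of M8/M4, so the arrays of each of these comparisons had opposite signs. The M8 pools had signals of 11109 and 20386, while the 10 other pools lay between 12265 and 15659. In F8/F3, which holds no male pool, the arrays gave 0.064 and 0.073. The lowest limma adjusted p of the 7 comparisons was 0.597, in M8/M3.

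Serpina6 took the opposite course to the Serpina1 genes. Corticosteroid-binding globulin RNA gave -1.36 and -0.77 on the M8/F8 arrays, and adult males had 0.478 of the female level (log2 ratio -1.07, SE 0.15, limma adjusted p = 0.0051). At 3 and 4 wk the ratios were near 0, with -0.14 and 0.16 in M3/F3 and -0.15 and -0.11 in M4/F4. In males the gene was lower at 8 wk than at 3 wk on both arrays (-0.67 and -0.50). The fitted ratio of -0.58 passed the limma test (adjusted p = 0.048) but lay just short of the fold threshold, and it was called under 4 alternatives, among them normexp and loess (-0.61) and the mean over both probes (-0.62). In females it was higher at 8 wk than at 4 wk (0.92 and 0.29, fitted 0.60, adjusted p = 0.043). That call was the only one among the 9 serpins in F8/F4, where 6.01% of all genes were called and 2.28% were called higher. It did not hold with either F8/F4 array left out (0.38 and 0.83). Nor did it hold without the dye term, with the replicate block or with slide as a block (limma adjusted p = 0.080, 0.062 and 0.070). The F8/F3 arrays gave 0.63 and 0.23 (fitted 0.43, adjusted p = 0.12).

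A second Serpina6 probe gave the same picture and is printed here because its calls went further than those of the main probe. Its 60 bases, from the study's list of probes, have a reading frame without a stop codon, and no letters are in capitals.
Serpina6, A_55_P2178036: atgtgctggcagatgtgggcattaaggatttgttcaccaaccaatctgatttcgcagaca
It gave -1.27 and -0.87 in M8/F8 (fitted -1.07, limma adjusted p = 0.0027) and was called in M8/M3 (-0.65, adjusted p = 0.018) and in F8/F4 (0.63, adjusted p = 0.020). Between the 2 probes the largest difference on any array was 0.25. The pool signals of the main probe were 58227 and 41534 in F8, 36674 and 38853 in M3, 39060 and 34667 in F3, 31490 and 33482 in F4, 29094 and 30510 in M4 and 23064 and 26268 in M8. The F8 pools were thus above all others and the M8 pools below all others. M3 and F3 overlapped, and the pools of the other neighbours in this order did not.

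Serpina12 showed the widest range, at a low signal. Vaspin RNA gave 2.59 and 2.27 on the M4/F4 arrays and 2.66 and 2.41 on the M8/F8 arrays, so that males were higher on each. The fitted ratios of 2.43 and 2.53 (5.40- and 5.79-fold, SE 0.67) just missed the threshold (limma adjusted p = 0.059 and 0.051). Both were called with group means, with shared pools in the covariance and with normexp and loess, which gave smaller ratios of 1.66 and 1.96. They were also called when the fit was limited to probes well above background, an alternative added once the data had been seen (adjusted p = 0.031 and 0.027). In M3/F3 the arrays gave -0.74 and 2.05, on opposite sides of 0. In M8/M3 they gave 4.22 and 2.05, and this difference was called (fitted 3.13, 8.78-fold, adjusted p = 0.024). It was not called without the first array (2.18, adjusted p = 0.22). M8/M4 gave 1.02 and 1.07, close together, and the fitted 1.05 did not pass (adjusted p = 0.41). The limma SE of a probe is common to its 7 comparisons, and for this probe the arrays of M3/F3 and M8/M3 lay furthest apart.

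The pool signals of Serpina12 ordered the groups by age within males. They were 426 and 347 in M8, 202 and 158 in M4, 55.2 and 69.0 in F8, 27.3 and 77.1 in M3, 27.5 and 38.0 in F4 and 46.6 and 21.5 in F3. The M8 and M4 pools were separate from each other and from all others, and F8, M3, F4 and F3 were not all separate from each other. The mean signal of the probe lay at the 55.6th percentile of all probes, whereas those of the Serpina1 genes lay above the 99.9th. In females the ratios were positive on all 4 arrays (0.26 and 1.46 for F8/F3, 1.14 and 0.55 for F8/F4) and were not called (adjusted p = 0.53 and 0.54).

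Whether the age change differed between the sexes was tested as the change in males minus that in females. By limma 0 of the 9 main probes were called from 3 to 8 wk (3.37% of all genes) or from 4 to 8 wk (1.32%), while 6 and 7 had an unadjusted p below 0.05. Serpina6 had a difference of -1.02 from 3 to 8 wk (SE 0.22, adjusted p = 0.053), Serpina1d one of 0.81 (SE 0.18, adjusted p = 0.057) and Serpina1e one of 0.79 (adjusted p = 0.062). From 4 to 8 wk the differences were -0.86 for Serpina6 and 0.78 to 0.89 for the Serpina1 genes, with adjusted p of 0.074 to 0.19. For Serpina12 the difference was 2.27 from 3 to 8 wk and 0.20 from 4 to 8 wk, with adjusted p of 0.27 and 1. The second probe of Serpina1a was called at both ages and that of Serpina6 from 3 to 8 wk. When the fit used group means, 6 of 9 were called from 3 to 8 wk and 5 from 4 to 8 wk, Serpina6 (adjusted p = 0.00074 and 0.0031) and the 4 Serpina1 genes at both and Serpina12 at the first. With the fit limited to probes well above background, again an added alternative, 3 genes were called from 3 to 8 wk (Serpina6, adjusted p = 0.031, Serpina1d, adjusted p = 0.035, and Serpina1e, adjusted p = 0.039) and Serpina1d from 4 to 8 wk (adjusted p = 0.045).

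The same quantity can be read from the sex arrays, as the ratio at 8 wk minus that at the younger age, and all of those arrays were scanned on the same day. From 3 to 8 wk this route gave -1.07 for Serpina6, 0.64 for Serpina1a, 0.70 for Serpina1c, 0.66 for Serpina1d and 0.61 for Serpina1e. For Serpina12 it gave 1.88, and from 4 to 8 wk 0.10. The directions were those of the age arrays for all 13 probes at both ages. The routes share pools and are not independent, and no test was run on the second one.

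**Figure D3:**
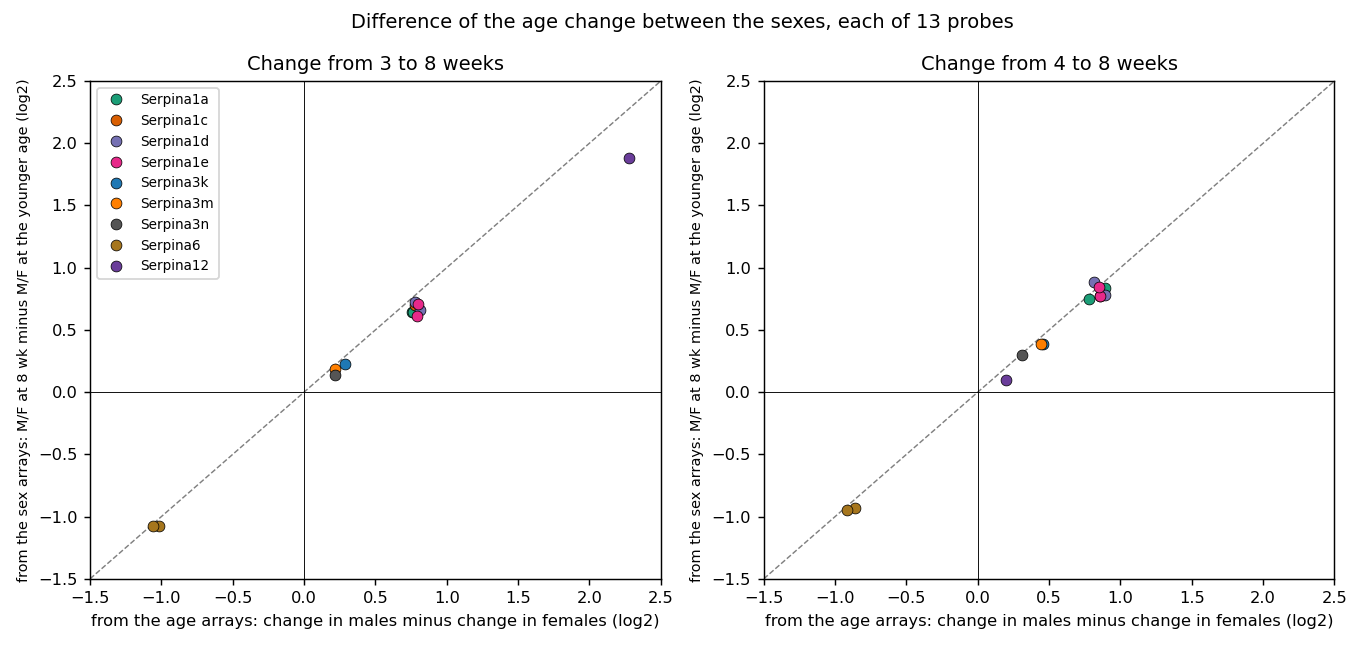
Difference of the age change between males and females for each of the 13 probes, in log2 units, from the age arrays (horizontal) and from the sex arrays (vertical), with the dashed line where they are equal. The Serpina1 probes lie between 0.61 and 0.89, Serpina6 lies near -1, and Serpina12 from 3 to 8 wk (2.27 and 1.88) lies furthest from the line.

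Along chromosome 12 the members lie in a cluster of 28 clade A genes and pseudogenes, 20 of them with a probe. Serpina6 is followed by the Serpina1 copies, Serpina12 and, further on, the Serpina3 copies. In M8/F8 17 of the 20 had a fitted ratio above 0, called or not, where the median of all genes tested was 0.00025. The 20 include the Serpina1 copies, which are not taken as separate, and Serpina1f and Serpina3j, which were not bright enough in M8/F8. Of the 20, 1, Serpina6, was called lower in males, where 3.74% of all genes were called lower. Of 16 other clade A genes listed, 12 had a probe and 10 were bright enough in M8/F8, of which 2 were called higher in males (median 0.62), where 2.65% of all genes were called higher. These were Serpina7, thyroxine-binding globulin, which is X-linked and lies outside the cluster (1.60, adjusted p = 0.032), and Serpina9, centerin, a serpin of germinal centre B cells (0.80, adjusted p = 0.014). With age Serpina9 was called lower in both sexes (M8/M3 ratio -0.81, F8/F3 ratio -1.37), and so was Serpina3a (-2.23 and -2.51), in comparisons that called 17.9% and 11.7% of all genes.

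**Figure D4:**
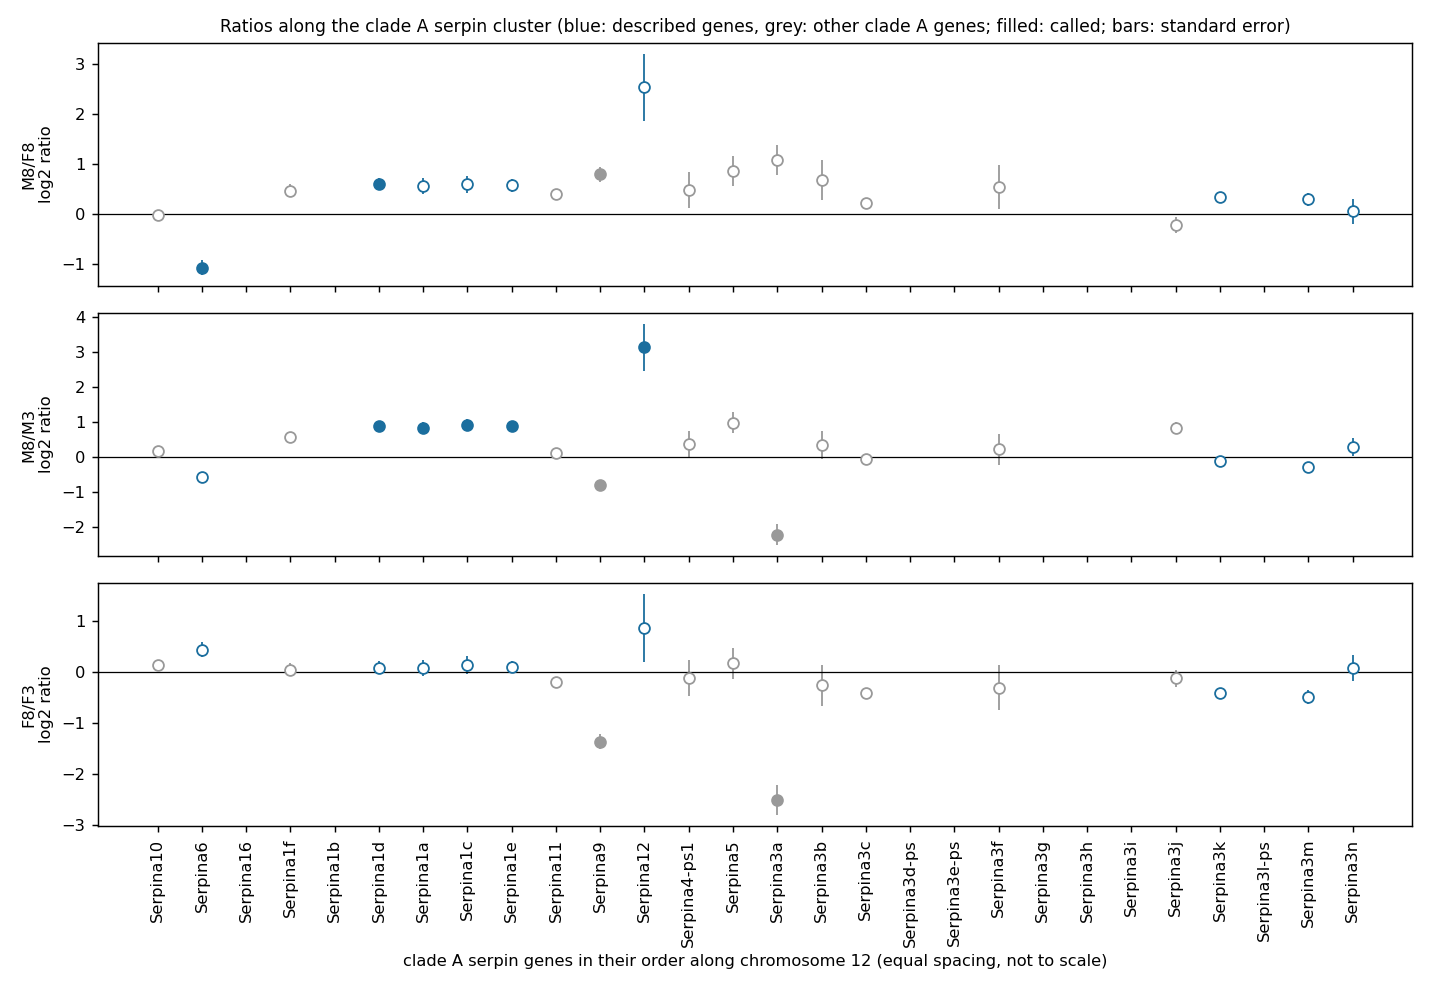
Fitted log2 ratios (bars for the standard error) of clade A serpins in their order along chromosome 12, equally spaced, in M8/F8, M8/M3 and F8/F3; genes without a probe have no point. Filled points were called, and the Serpina1 genes stand as a level block near 0.6 in M8/F8 and near 0.9 in M8/M3 beside Serpina6, which is below 0 in both.

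Genes of other secreted proteins of liver were called in both directions, where 6.4% of all genes were called in M8/F8 and 17.9% in M8/M3. Of 8 serpins of other clades, 1 was called higher in M8/F8, Serpine2, protease nexin-1 (2.18, limma adjusted p = 0.022), and Serping1, the C1 inhibitor, was called higher in M8/M3 (0.67). Of 9 other carriers of hormones and vitamins 8 were bright enough in M8/F8, and Tcn2, transcobalamin, was lower in males (-0.76). In M8/M3 albumin (Alb, -0.71) and afamin (Afm, -0.69) were lower and Orm1, orosomucoid, was higher (0.82). Of 22 acute phase genes, 5 were called higher and 2 lower in M8/M3, among them Hamp, hepcidin (1.24), and Apcs, serum amyloid P (-1.17). In M8/F8 1 was higher, Mug1, a murinoglobulin protease inhibitor (0.74), and 3 were lower, among them Orm3 (-2.10) and Hamp (-0.92).

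Genes of glucocorticoid action were examined beside Serpina6. Of 12, 1 was called higher and 3 lower in M8/F8, against the 6.4% of all genes called there. In M3/F3 2 of the 12, Pck1 (-1.19) and Tsc22d3 (-0.66), were called lower (median -0.28, 0.517% of all genes called) and in M4/F4 1 was, Zbtb16 (-1.11, median -0.27, 1.58%), ages at which Serpina6 was not called. The genes lower in M8/F8 were Per1, a clock gene that glucocorticoids induce (-1.20), Fkbp5, a co-chaperone of the glucocorticoid receptor (-1.07), and Akr1d1, the steroid 5beta-reductase (-0.77). The gene higher in M8/F8 was Srd5a1, the steroid 5alpha-reductase (0.89). The receptor gene itself, Nr3c1, had an M8/F8 ratio of -0.30 that was not called, and it was named after its value was seen, as were the genes of M3/F3 and M4/F4. Of 18 genes for transcription factors of hepatocytes and growth hormone signalling, 17 were bright enough in M8/F8 and 2 were called, Cux2 and Prlr, the prolactin receptor (-1.68), both lower in males. The male signal of Cux2 was not well above background on each array, and no fold is given for it.

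Markers of other cell types moved in some of the same comparisons, in which 6.4% (M8/F8), 17.9% (M8/M3) and 11.7% (F8/F3) of all genes were called. The shares were 10.9% in M8/M4, 6.01% in F8/F4 and 1.58% in M4/F4. All 6 hepatocyte markers were bright, 1 was called higher and 1 lower in M8/M3 and none in M8/F8, with summed signals of 535195 and 555607 in the M8 pools and 537757 and 632205 in the F8 pools. Of 8 neutrophil markers, 7 were called lower in M8/M3 and 7 in F8/F3, with summed signals of 5211 and 5187 in M3, 9026 and 10943 in F3, 1436 and 1598 in M8 and 1786 and 1958 in F8. Of 5 erythroid markers 4 were lower in each age comparison, with sums of 65451 to 83341 in the 3 and 4 wk pools and 26846 to 37276 in the 8 wk pools. The remaining one, Alas2, the erythroid form of the first enzyme of heme synthesis, was called higher in M8/M3 (1.37) and M8/M4 (0.98). It was also called higher in M8/F8 (1.89) and already in M4/F4 (0.78), and had an F8/F3 ratio of -0.27 that was not called. Of 5 measured Kupffer cell markers 3 were lower in M8/F8, with sums of 15480 and 19986 in M8 and 24873 and 27146 in F8. With age 2 were lower in M8/M3 and 2 in M8/M4, against 1 in F8/F3 and 1 in F8/F4. Their sums were 27303 and 23770 in M3 and 25320 and 27373 in M4. Of 5 lymphocyte markers 1 was lower in M8/F8 (sums of 467 to 508 in M8 and 534 to 605 in F8). The part of these cells in the serpin results was not tested. Of 13 proteases that serpins inhibit, 1 was higher and 1 lower in M8/F8, Klk1, a tissue kallikrein (0.78), and Gzmb, granzyme B (-0.99), and 3 were lower in M8/M3, Gzmb and the neutrophil proteases Prtn3 (-1.79) and Ctsg (-1.21).

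The genes with the most similar pattern were sought for members whose comparisons spanned at least 1 on the log2 scale, among 12304 genes that were well above background throughout. The nearest gene to each Serpina1 gene was another copy. The third nearest was Phf12 for Serpina1d (r = 0.978, against 0.977 for Serpina1e) and Srek1 for Serpina1c (r = 0.970, against 0.962 for Serpina1e). For Serpina6 the nearest were Bche (r = 0.96), Rubcn (r = 0.96) and Sbk1 (r = 0.94), and for Serpina12 they were Adck5 (r = 0.90), Hsd3b5 (r = 0.89) and Galc (r = 0.88). These correlations run over 14 arrays that share pools and dyes, and they describe the arrays.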

How the data were processed

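Liver RNA pools of CD-1 mice were hybridized to Agilent two-colour arrays. The authors scanned them and deposited, per the file headers, processed intensities and log10 ratios of red over green from Agilent's Feature Extraction software, which subtracted the background and normalized the dyes of each array (linear, then LOWESS). Flags (other) and the software's error of each log ratio came from the same deposited files, and the array design's annotation is on mm9. The deposited series table held the same log10 ratios (largest difference 0) and was not used further.

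Log10 ratios were turned to log2, oriented by the dyes in the sample labels, and averaged over spots of a probe after control spots and 0 to 10 non-uniform spots per array were left out, which gave 39429 probes. All 14 arrays were fitted together in limma 3.58.1 (R 4.3.3), with 7 comparison coefficients and 1 dye term per probe (6 residual degrees of freedom). Differences between sexes in the age change, M4/M3 and F4/F3 were contrasts of that fit. P-values were adjusted by Benjamini-Hochberg over all probes and the 7 comparisons together, and over all probes for each contrast. Calls needed an adjusted p below 0.05, a ratio above 1.5 or below its inverse and a bright group, as the report defines. A fit of all arrays does not model that pools were reused, which an alternative did. Pool levels were processed intensities averaged over the arrays of a pool after scaling between arrays.

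Genes were named through RefSeq accessions. A gene was represented by its brightest probe, and other probes of members are given beside it. All members were named, with the 3 genes most like each member that spanned at least 1 on the log2 scale, and at most 3 called genes per list and comparison. The members and lists were chosen with earlier results of these data known. The fit was tested on simulated data. Alternatives covered the dye term, the group model, shared pools, replicate and slide blocks, background correction and normalization, weights, adjustment, filters, thresholds, probe choice and leaving out each array. Replicate numbers were not used as pairs in the main fit. Deviations of arrays with the same number correlated above 0.1 in 11 of 21 pairs of comparisons (r of -0.53 to 0.68). The numbers were used to identify pools, for the pool levels and the alternative with shared pools, and in the replicate block.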

Additional observations from a re-analysis of the deposited data

Results flagged for a closer look

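Second probes of a pair of genes showed a difference between the sexes in the age change that passed the test, while the main probes of the same genes did not. For Serpina1a the second probe rose more in males than in females by 0.76 on the log2 scale from 3 to 8 wk (limma adjusted p = 0.031) and by 0.89 from 4 to 8 wk (adjusted p = 0.034). The main probe gave 0.76 and 0.78 (limma adjusted p = 0.13 and 0.19). For Serpina6 the second probe gave -1.06 from 3 to 8 wk (limma adjusted p = 0.028), and the main probe gave -1.02 (adjusted p = 0.053). The second probes of Serpina1d (limma adjusted p = 0.11 and 0.16) and Serpina1e (adjusted p = 0.13 and 0.18) were further from the threshold than their main probes. The probes of a gene differed little in size and more in the spread between arrays. From 3 to 8 wk the male and female arrays were scanned on different days, which the sex arrays were not, and those gave 0.64 for the second Serpina1a probe and -1.07 for that of Serpina6.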

How the results depend on the processing

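No fitted ratio changed to a called value of the opposite sign under any alternative run. The number of the 9 serpins called in M8/F8 was 2. It was 1 without the dye term, with slide as a block or at a ratio threshold of 2. With group means in place of comparisons it was 6, and with shared pools in the covariance 4. Median centring, no ratio threshold and the mean over probes each gave 3, with Serpina1e added. It was 0 with weights from the software's error of each log ratio and an unadjusted limma p below 0.0001. Those error weights are not the study's own error model, which was not run. With normexp and loess the count stayed at 2, with Serpina12 called and Serpina1d not. In M8/M3 the count of 5 became 2 without the dye term, 1 at a ratio threshold of 2 and 0 with error weights, and 6, with Serpina6 called lower, with group means, with normexp and loess, with no ratio threshold and with the mean over probes. In M8/M4 the count of 3 became 0 without the dye term, at a ratio threshold of 2 and with error weights, 2 with shared pools, with slide as a block and with the mean over probes, and 4 with normexp and loess and with median centring. In F8/F4 the count of 1 became 0 without the dye term, with slide as a block, with error weights and at a ratio threshold of 2, and 2 with no ratio threshold, which also gave 1 in F8/F3 in place of 0. In M4/F4 the count of 0 became 1 (Serpina12) with group means, with shared pools and with normexp and loess. For the difference between sexes from 3 to 8 wk 0 became 6 with group means and 1 each with normexp and loess, with median centring and with the mean over probes. From 4 to 8 wk 0 became 5 with group means and 2 with normexp and loess. The fit to probes well above background only, chosen after the data were seen, gave 1 in M4/F4, 4 in M8/F8, 3 for the difference from 3 to 8 wk and 1 from 4 to 8 wk. Leaving out 1 array gave 0 to 3 in M8/F8, 0 to 5 in M8/M3, 0 to 0 in M8/M4 and 0 to 0 in F8/F4; the counts of 0 for M8/F8 and M8/M3 came without the first array. The cause of these changes was not tested.

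With the replicate block the count was 0 in F8/F4 (Serpina6, limma adjusted p = 0.062) and 2 in M8/M4 (Serpina1c, adjusted p = 0.072), and the other counts were as before. With 2 arrays per comparison and 2 pools per group, the spread between pools is poorly known, and the pools hide the spread between mice.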
